A study of Mus musculus with 2 samples.

Results

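Fragments of the hairpins Mir23a, Mir27a and Mir24-2 on chromosome 8 and of Mir23b, Mir27b and Mir24-1 on chromosome 13 were described in mouse embryonic stem cells. These 6 miRNA genes were taken by name, and their reads are the sequences of 15 to 17 nt with an exact, full-length sense match in one of the hairpins. In all, 17 distinct sequences qualified: 16 sequences with 1348 reads in the DMSO library and 8 sequences with 555 reads in the SB431542 library. They were part of 77907 and 21808 miRNA reads, which came from 336 of the 1174 miRNA genes annotated. Both libraries were made from total RNA of the J1 line (strain 129S4/SvJae), adapted to grow on gelatin and kept in LIF at 1000 U/mL, a cytokine that holds mouse stem cells undifferentiated. The control cells received DMSO for 24 h, and the treated cells received 3 µM SB431542, which blocks the receptor kinases ALK4, ALK5 and ALK7 of Nodal, activin and TGF-beta signalling, for the same time. The medium contained Knockout Serum Replacement in both groups. The cells are of 1 line with 1 library per condition. Differences between the conditions therefore have no replicate check and no p-values, and all intervals cover counting error only. No sequence analysed exceeds 17 nt. A mature miRNA is longer, so the values describe fragments, and full-length miRNAs are not analysed here.

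The miR-23, miR-27 and miR-24 genes occur as a pair of clusters. In each, a hairpin of every family lies on the same strand, and the hairpins are known to be cut from a shared primary transcript by Drosha and then Dicer. Each hairpin can give a miRNA from its 5' arm (5p) and from its 3' arm (3p), and the 3p products are the usual guide strands, which Argonaute proteins use to bind target mRNAs through the seed, bases 2 to 8. The clusters are known from endothelial, muscle, fat and immune cells, and miR-27 and miR-24 have been described as regulators of TGF-beta pathway components in other cell types.

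The mature miRNAs are shown first, because what a fragment of at most 17 nt can reveal depends on where the copies differ. Sequences are from RefSeq (GRCm38.p6), written 5' to 3' with the seed in capitals. The RefSeq table matched 11 entries of the 6 hairpins, under 10 names, since miR-24-3p is made from both of its hairpins. The 3p miRNA of Mir23b, miR-23b-3p, is named only. The matched 3p miRNAs were:
miR-23a-3p: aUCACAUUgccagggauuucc
miR-27a-3p: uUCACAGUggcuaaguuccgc
miR-27b-3p: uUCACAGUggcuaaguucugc
miR-24-3p: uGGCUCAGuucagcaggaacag
The 5p miRNAs for which reads or copy differences are described below were:
miR-23a-5p: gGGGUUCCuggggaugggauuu
miR-23b-5p: gGGUUCCUggcaugcugauuu
miR-27b-5p: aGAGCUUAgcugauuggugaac
miR-24-1-5p: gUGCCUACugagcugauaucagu
miR-24-2-5p: gUGCCUACugagcugaaacagu

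The miR-27a-3p and miR-27b-3p sequences share their seed with each other and with no other mature miRNA of the RefSeq table. They differ by 1 base, C19U (the base of miR-27a-3p, its position counted from 1 at the 5' end, and the base of miR-27b-3p). The seed of miR-23a-3p is also held by 2 of the fragments, which match both Mir23a and Mir23b. The seed of miR-24-3p was found under 4 other names (miR-5124b, miR-6369, miR-6410 and miR-6413), and the miR-24-1-5p and miR-24-2-5p seeds were the same. The 5p miRNAs of the other families had a seed of their own in each copy.

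In the GRCm38 annotation (GENCODE M21) all 6 hairpins lie on the plus strand. Mir23a is at 84208518 to 84208592 of chromosome 8, Mir27a at 84208672 to 84208758 and Mir24-2 at 84208815 to 84208921, a span of 404 bp. Mir23a and Mir27a overlap no other annotated gene, and Mir24-2 overlaps the start of the long noncoding RNA Gm26532 (84208920 to 84209609). On chromosome 13 Mir23b is at 63300484 to 63300557, Mir27b at 63300712 to 63300784 and Mir24-1 at 63301208 to 63301275, a span of 792 bp. These lie within the protein-coding gene 2010111I01Rik, named Aopep in RefSeq. Mir23b is intronic in the 9 transcripts that span it, whereas Mir27b is exonic in 1 of 9 and Mir24-1 in 1 of 8, in each case a transcript of the nonsense-mediated decay class. Fancc lies over this cluster on the opposite strand, and Mir3074-1 and Mir3074-2 lie opposite Mir24-1 and Mir24-2.

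The first comparison asked how the reads were divided among the 3 families, which share primary transcripts. Nearly all were miR-27. With DMSO the miR-27 family had 1331 of the 1348 reads, or 98.7% (95% Clopper-Pearson interval 98.0 to 99.3), against 10 reads of miR-23 and 7 of miR-24. With SB431542 it had 550 of 555 reads, or 99.1% (97.9 to 99.7), against 3 of miR-23 and 2 of miR-24. A miR-23 read was thus matched by 133 reads of miR-27 with DMSO (72.1 to 278) and by 183 with SB431542 (62.4 to 892). A miR-24 read was matched by 190.1 (92.0 to 474) and by 275 (75.8 to 2276). The intervals of the libraries overlapped, and the difference in makeup between the libraries was not itself tested.

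Per 1000000 miRNA reads (RPM), the miR-27 family stood at 17084 with DMSO (16186 to 18019) and at 25220.1 with SB431542 (23179.7 to 27388). The miR-23 family stood at 128 (61.6 to 236) and 138 (28.4 to 402), and the miR-24 family at 89.9 (36.1 to 185) and 91.7 (11.1 to 331). One read is worth 12.8 RPM with DMSO and 45.9 with SB431542. The order of miR-27 over both other families was the same in both libraries, while miR-23 and miR-24 had overlapping intervals in each.

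**Figure D1:**
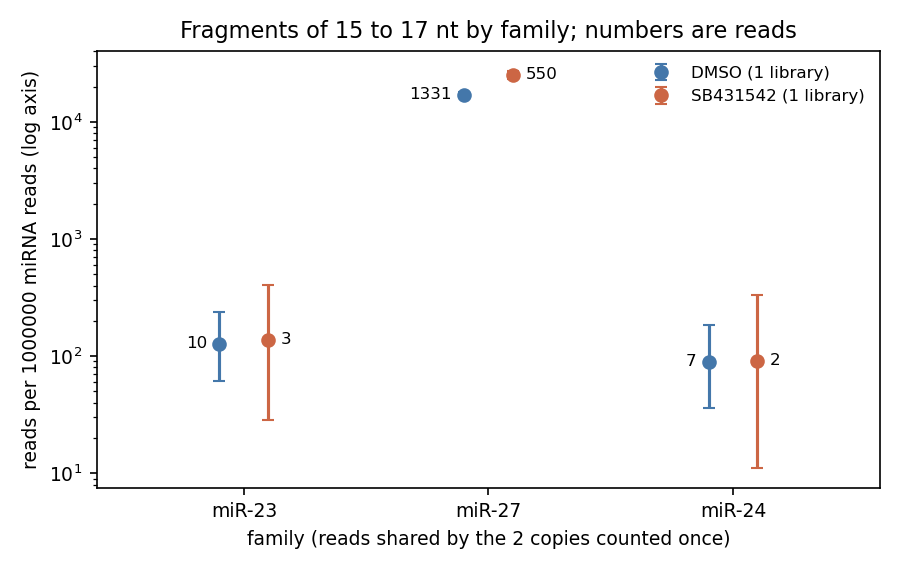
Reads per 1000000 miRNA reads (log axis) of the miR-23, miR-27 and miR-24 families in the DMSO and the SB431542 library, 1 library each. Points are values, bars 95% counting intervals (hidden by the points for miR-27) and numbers the reads. The miR-27 family lies at 17084 and 25220.1, the other families between 89.9 and 138.

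The fragments that carry these reads are printed as deposited, with the bases of the mature miRNA's seed in capitals. For miR-27 the 3 most abundant share their first base with the mature 3p miRNA and end at its base 17, 15 or 16:
miR-27 fragment of 17 nt: tTCACAGTggctaagtt
miR-27 fragment of 15 nt: tTCACAGTggctaag
miR-27 fragment of 16 nt: tTCACAGTggctaagt
The 17 nt fragment alone had 1263 reads with DMSO and 516 with SB431542, 94.9% and 93.8% of the family. The fragment of 15 nt had 33 and 18 reads and that of 16 nt had 24 and 14. The other 7 miR-27 sequences had at most 5 reads each over both libraries.

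The second comparison asked whether the level of each family differed between cells with and without the inhibitor. The arm miR-27-3p, to which the miR-27 family owed all but 1 of its reads, had 1330 reads with DMSO and 550 with SB431542. In RPM it was 1.48-fold higher with SB431542 (1.34 to 1.63; log2 ratio 0.56, 0.42 to 0.71). It was the arm with the fifth most reads in both libraries, behind only miR-293-3p, miR-409-3p, miR-25-3p and miR-382-5p. Per reads of 15 to 17 nt, however, it was lower with SB431542 (log2 ratio -0.34, -0.48 to -0.19), because miRNA reads as a whole were 4.21% of those reads there and 7.87% with DMSO. The sign of the miR-27 difference thus rests on the scale: it was higher relative to other miRNA fragments and lower relative to all fragments of this length. In a bulk sample, fewer cells with a miRNA and less of it per cell cannot be told apart.

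A sum of at least 50 reads was reached by 44 arms, of which miR-27-3p was the only one from these hairpins, and it lay below 2-fold. Outside these hairpins, copies of a miRNA count as separate arms, with shared reads divided equally among them. At least 2-fold higher with SB431542 were 3 of the 44 (6.82%) and at least 2-fold lower were 2 (4.55%). The counting interval of miR-27-3p lay above 0, as did those of 10 arms in all (22.7%), and those of 9 arms lay below 0. The median log2 ratio of the 44 arms was 0.09, and 5 arms had a higher ratio than miR-27-3p and 38 a lower one. The 5 include the 3 arms that were at least 2-fold higher. The 3 arms whose log2 ratio was nearest to that of miR-27-3p, over these 2 libraries only, were miR-6240-5p (0.55, 0.27 to 0.82), then miR-376a-3p with 0.59 (-0.11 to 1.23), and then, at 0.52 (-0.01 to 1.02), miR-191-5p. With 160 or fewer SB431542 reads each, their intervals were wider than that of miR-27-3p. The miR-6240-5p reads did not start at base 1 of the mature miRNA in either library (0.0%). For miR-376a-3p that share was 97.0% with DMSO and 100% with SB431542, and for miR-191-5p 95.7% and 97.8%.

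**Figure D2:**
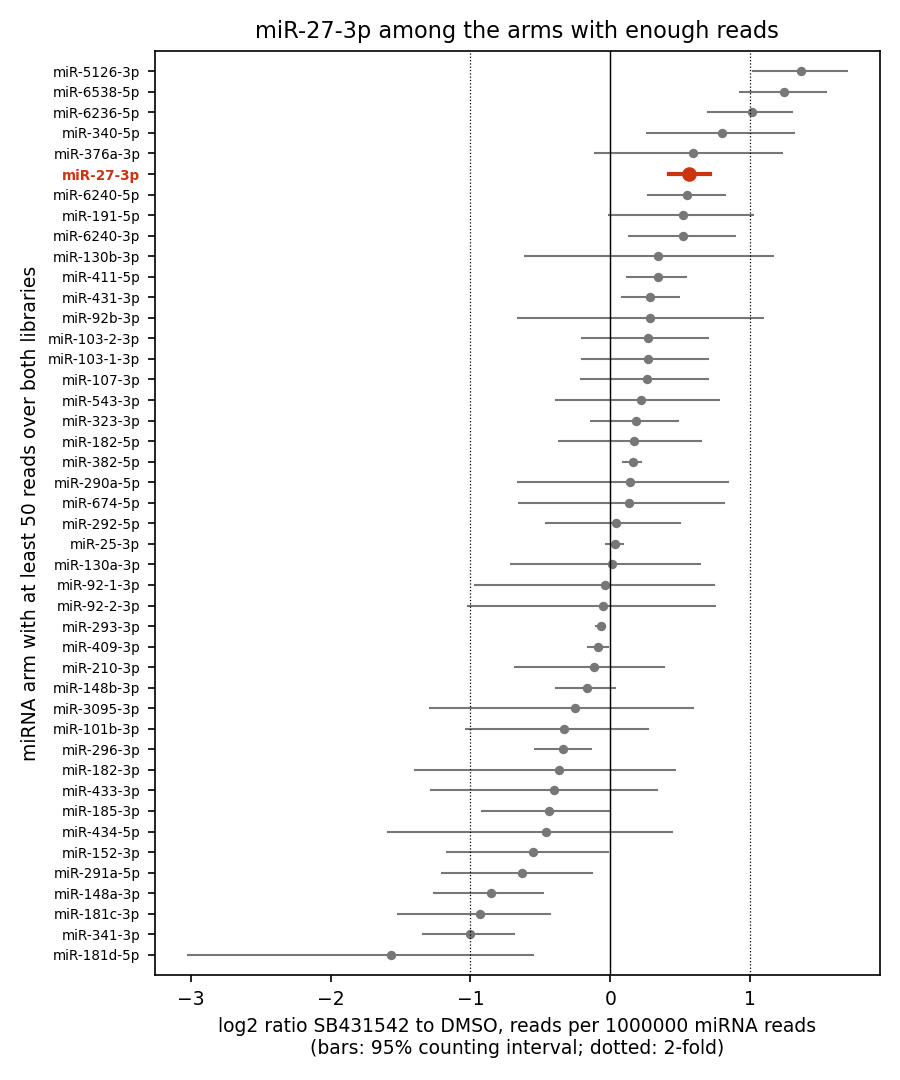
Log2 ratio of SB431542 to DMSO in reads per 1000000 miRNA reads for the 44 miRNA arms with at least 50 reads, with 95% counting intervals as bars and 2-fold as dotted lines. The arm miR-27-3p, in red, lies at 0.56 with an interval of 0.42 to 0.71, below 5 arms and above 38.

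Relative to the miRNA reads of the same length, the log2 ratio was positive at every length, though not every interval excluded 0. At 17 nt, miR-27-3p supplied 6.33% of the miRNA reads of that length with DMSO and 8.83% with SB431542, a log2 ratio of 0.48 (0.33 to 0.63). At 15 nt it supplied 0.137% and 0.259%, from 35 and 18 reads (log2 ratio 0.94, 0.01 to 1.78). At 16 nt it supplied 0.0865% and 0.167%, from 28 and 15 reads (0.97, -0.07 to 1.90), where the interval included 0. Without the leading 17 nt fragment, the remaining miR-27 reads numbered 68 with DMSO and 34 with SB431542, a log2 ratio of 0.85 on the main scale.

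Base composition moved with the libraries, and it was set beside the ratio. The mean GC content of the miR-27-3p reads was 41.4%. For this, sequences that are not from miRNAs and have at least 20 reads over both libraries were used, scaled to all reads of 15 to 17 nt. The 760 sequences of 40 to 50% GC had a median log2 difference of -0.44, those with 60 to 70% GC -0.01, and those with 80 to 90% GC 0.38. At lower GC the medians did not change steadily: -0.72 at 30 to 40%, -0.56 at 20 to 30% and -0.39 at 10 to 20%. On the same scale miR-27 stood at -0.34. After division of the SB431542 counts by the median ratio of each GC class, a correction added after the data were seen, the miR-27 log2 ratio in RPM was 0.72. The part of base composition in the miR-27 difference was not tested.

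The third comparison asked which part of the miR-27 hairpins the fragments come from. Of 1330 reads of miR-27-3p with DMSO, 1320 started at base 1 of the mature miRNA (99.2%, 98.6 to 99.6), 5 at base 2, 3 at base 3 and 1 at base 4. With SB431542, 548 of 550 reads started at base 1 (99.6%, 98.7 to 100.0) and 2 at base 2. Reads from base 1 or base 2 hold the whole seed. They ended at base 18 or before it, short of position 19, at which the copies differ. The remaining DMSO read, counted with this arm by its midpoint, lay in the loop before the mature miRNA.

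By length, 1267 of the 1330 DMSO reads of miR-27-3p were 17 nt long (95.3%, 94.0 to 96.3), 28 were 16 nt and 35 were 15 nt. With SB431542, 517 of 550 were 17 nt long (94.0%, 91.7 to 95.8), 15 were 16 nt and 18 were 15 nt. The libraries' intervals overlapped. The miRNA reads outside these hairpins were spread more evenly in both libraries: 24.5% were 17 nt long with DMSO (24.2 to 24.8) and 25.1% with SB431542 (24.5 to 25.7), while 16 nt reads made up 42.2% and 42.3%. All reads of 15 to 17 nt together had 49.5% and 49.1% at 17 nt.

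**Figure D3:**
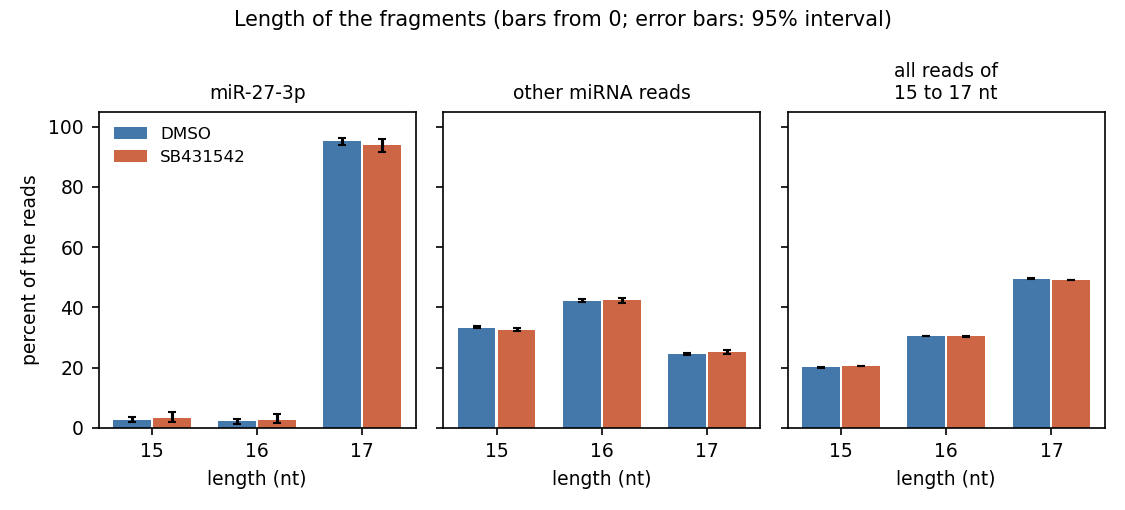
Share of reads of 15, 16 and 17 nt, in percent, for miR-27-3p, for miRNA reads outside these hairpins and for all reads of 15 to 17 nt, in the DMSO and the SB431542 library. Bars start at 0 and error bars are 95% Clopper-Pearson intervals. At 17 nt miR-27-3p reaches 95.3% and 94.0%, other miRNA reads 24.5% and 25.1%.

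Set beside the 43 other arms with at least 50 reads, the share of 17 nt reads was above all of them with DMSO, where the others ran from 4.26% to 94.9% with a median of 51.9%. With SB431542 only miR-181c-3p had a higher share, at 94.1% of 34 reads, and the median of the others was 51.0%. The most abundant stem-cell arm, miR-293-3p, had 19.4% and 20.4% of its reads at 17 nt, and miR-25-3p had 10.8% and 10.7%. Starting at base 1 was common among the arms: of 41 others with a mature entry the median share was 97.0% with DMSO and 96.6% with SB431542, and 10 and 14 of them were above miR-27-3p. In length miR-27-3p was thus at or near the upper end of the arms in both libraries, and in start it lay among many others. Reads longer than 17 nt were not analysed here, so the 17 nt class is the longest that could be seen.

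**Figure D4:**
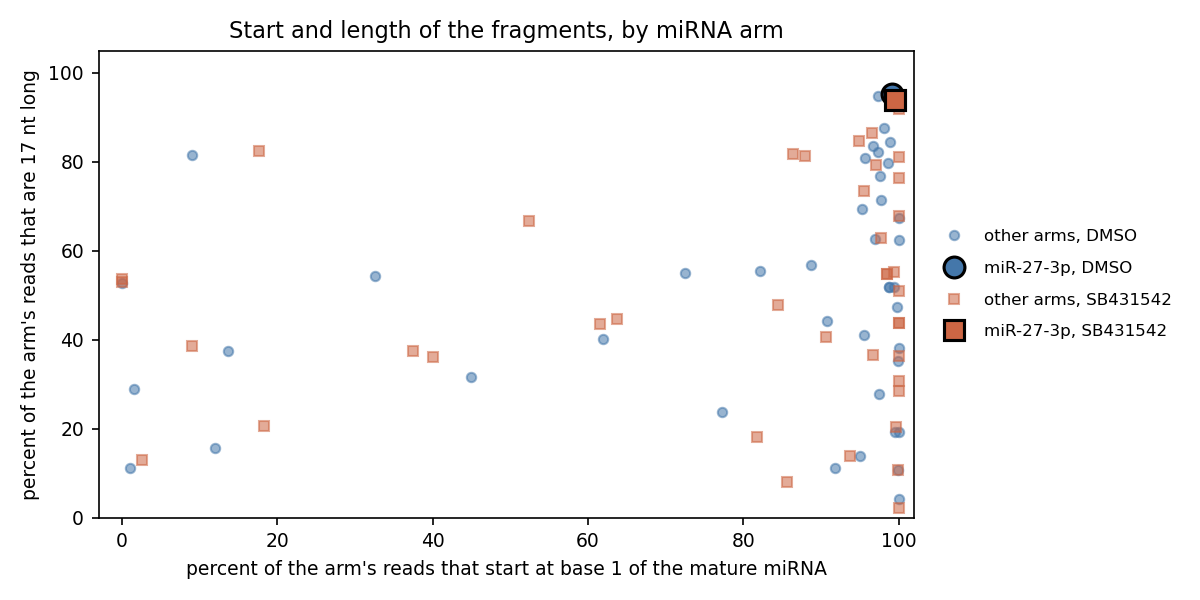
Each point is a miRNA arm with at least 50 reads and a mature entry, in the DMSO (circles) or SB431542 library (squares). The horizontal axis gives the percent of its reads that start at base 1 of the mature miRNA and the vertical axis the percent that are 17 nt long. The outlined miR-27-3p points lie at 99.2% and 95.3% with DMSO and at 99.6% and 94.0% with SB431542.

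The fourth comparison asked which of the clusters the reads came from. Nearly all reads could not tell: 1338 of 1348 with DMSO (99.3%) and 553 of 555 with SB431542 (99.6%) matched a hairpin of both clusters. Reads of the chromosome 8 cluster alone numbered 7 with DMSO and 2 with SB431542, all from Mir23a. Reads of the chromosome 13 cluster alone numbered 3 and 0, from Mir23b and Mir27b. The clusters' contributions to miR-27 and miR-24 therefore could not be compared.

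This limit follows from the sequences above. Of the 18 possible windows of 15 to 17 nt within miR-27a-3p, 9 differ from the Mir27b hairpin, and none of these starts before base 3. Reads that did start at base 3 or 4 ended at base 17 or 18, before the base that differs. No read of Mir27a alone was found. By a limit of 3 reads, such reads could be up to 0.225% of the miR-27 reads with DMSO and 0.545% with SB431542. This does not limit what Mir27a contributed, because 99.8% and 100.0% of the miR-27 reads matched both copies. Mir27b alone had 2 DMSO reads and no SB431542 read. Of these, 1 lies in miR-27b-5p from its base 1 and 1 in the loop between the arms:
miR-27b-5p fragment: aGAGCTTAgctgattgg
Mir27b loop fragment: gtgattggtttccgct

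The miR-27 and miR-24 fragments printed here are also part of the exonic transcript of 2010111I01Rik, in which Mir27b and Mir24-1 lie. Outside the hairpins, sense sequences found in that gene and no other had 3 reads with DMSO and 0 with SB431542, against 1331 and 550 of miR-27. The 15 nt miR-27 fragment also occurs in Sox12, a gene of a SOX transcription factor. No antisense match to any of the 6 hairpins was found among 990296 and 517535 reads of 15 to 17 nt, and no read matched Gm26532, Mir3074-1 or Mir3074-2.

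The few miR-23 reads came from both arms with DMSO, where 8 of 10 were of the 5p arm and 2 of the 3p arm. The 3 SB431542 reads were all of the 3p arm, as were all 550 of miR-27. The 3 most abundant fragments, shown because they tell the copies apart or show where a shared read ends, were:
miR-23a-5p fragment: gGGGTTCCtggggatgg
miR-23a-3p fragment from base 4: ACATTgccagggatttc
miR-23-3p fragment from base 1: aTCACATTgccagggat
The first had 7 DMSO reads and no SB431542 read, and it occurs in Mir23a only. The second had 2 SB431542 reads and no DMSO read and is also specific to Mir23a. The third, found in both copies, had 1 read in each library. A single DMSO read was of miR-23b-5p. Thus 7 of 10 DMSO reads and 2 of 3 SB431542 reads of the family were from Mir23a, and 1 and 0 from Mir23b.

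The 8 reads of miR-23-5p with DMSO correspond to 103 RPM, which is under the 138 RPM (3 reads) that no read in the SB431542 library allows. Its absence there therefore neither shows nor excludes a difference. The log2 ratio of the miR-23 family was 0.25, with an interval from -2.40 to 2.06, and no difference was detectable at this depth.

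The miR-24 reads were all of miR-24-3p, and all began at its base 1:
miR-24-3p fragment of 17 nt: tGGCTCAGttcagcagg
miR-24-3p fragment of 16 nt: tGGCTCAGttcagcag
The 17 nt fragment had 5 DMSO reads and no SB431542 read, and that of 16 nt had 2 reads in each library. The log2 ratio of the family was 0.25 (-3.27 to 2.42). None of the 21 windows within miR-24-3p differs between Mir24-1 and Mir24-2. The 5p miRNAs could tell these copies apart in 21 of 24 windows of miR-24-1-5p and 18 of 21 of miR-24-2-5p, but no read of either was found, nor of miR-27a-5p. A count of 0 leaves room for 38.5 RPM in the DMSO library and 138 RPM in the SB431542 library. Summed, miR-23 and miR-24 had 17 and 5 reads, a log2 ratio of 0.17 (-1.72 to 1.57), whose interval holds the miR-27 value.

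The cell type in the labels was checked with marker miRNAs, since these clusters are also known from other cells. The stem-cell miRNA genes on the list, from Mir290a to Mir295, supplied 50.5% of miRNA reads with DMSO and 47.9% with SB431542. These came from 6 of 8 annotated genes of the list, mostly miR-293. Listed genes without a read counted were Mir290b, Mir292a and Mir292b. Reads of miR-292-5p (171 with DMSO and 49 with SB431542), from a gene annotated as Mir292, were not counted with the list. Of the 2 endothelial markers, Mir126a and Mir126b, neither had a read. Blood cell markers had 7 and 2 reads, from 2 of 6 annotated genes, with Mir451a, Mir142 and Mir223 at 0, and muscle markers had 0 and 3. Markers of fibroblasts and feeder cells had 236 reads with DMSO (3029 RPM) and 43 with SB431542 (1972 RPM), from 8 of 12 genes, with Mir145a, Mir145b, Mir214 and Mir218-2 at 0. The only arm of this list with at least 50 reads was miR-152-3p, with 170 DMSO and 32 SB431542 reads, most of the sum. In RPM the summed log2 ratio of these markers was -0.61 (-1.12 to -0.15), and that of miR-27 was 0.56. Per reads of 15 to 17 nt every log2 ratio shifts by -0.9, and both are then negative (-0.34 for miR-27). The part of these markers in the miR-27 difference was not tested.

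Of 22 other miRNA genes that have been linked to TGF-beta and Smad signalling in other cells, 17 had a read. They had 424 reads in all with DMSO and 62 with SB431542 (log2 ratio in RPM -0.93, -1.35 to -0.55). Only 2 of their arms had 50 reads, miR-181c-3p (235 with DMSO and 34 with SB431542) and miR-181d-5p (79 and 7), of neighbouring genes. These 2 arms held most of the reads, so the sum does not describe the listed genes in general. None of the 2 was at least 2-fold higher and 1, miR-181d-5p, was at least 2-fold lower. The median log2 ratio of these 2 arms in RPM was -1.25, against 0.09 for all 44 arms and 0.56 for miR-27-3p. Per reads of 15 to 17 nt each of these values shifts by -0.9.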

How the data were processed

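Small RNA reads of 1 library of J1 cells with DMSO and 1 with SB431542 were analysed. What the authors deposited is a whole-number read count for each distinct sequence of 3 to 17 nt. Per the submitters' processing notes the genome build was mm9, and no coordinate of that build was used. For trimming, filters, aligner and size selection: not given in the sources used here. Per the labels' protocols, total RNA was isolated with TRIzol and an Illumina TruSeq RNA kit was used. The files hold 1190074 reads with DMSO and 645925 with SB431542, which are totals of this length class and not library depths.

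Sequences of at least 15 nt were matched exactly to GENCODE M21 transcripts, on the sense strand. Genes of symbol Mir were taken as miRNAs. A sequence was left out where a different class of small RNA, or over 5 further genes, held it as well, which applied to none of the members' sequences. Each sequence was given to the hairpin arm that holds its midpoint. Reads shared by the copies of a family count once. RPM uses all miRNA reads, and log2 ratios a pseudocount of 0.5 read. Intervals are 95% Clopper-Pearson intervals, for ratios conditional on the summed reads. They cover counting error only, as PCR copies carry no molecular identifier here and a read need not be a separate molecule. Limits given for a count of 0 are those of 3 reads and are not Clopper-Pearson limits. With 1 library a group there was no test. Arm assignment and ratio intervals were run on simulated data made under the assumptions of the calculation. Such data do not test the filters, the sharing of reads by copies or the scaling. Named were all members, the 3 arms nearest in ratio, and the 3 most abundant fragments of a family. Fragments and arms named outside this rule were chosen after their values were seen. Members and lists were chosen with earlier results of these data known. Other scales, length minimums, pseudocounts and filters were tried. Scaling factors, and nothing else, came from edgeR 4.0.16 and DESeq2 1.42.0 under R 4.3.3. All other steps ran in Python 3.11.15 with scipy 1.17.1, pandas 2.3.3, numpy 2.4.6 and matplotlib 3.10.9.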

Additional observations from a re-analysis of the deposited data

How the results depend on the processing

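The log2 ratio of the miR-27 family, 0.56 in RPM, was -0.34 per reads of 15 to 17 nt, -0.39 per all reads in the file, 0.26 with edgeR factors, 0.31 with DESeq2 factors and -0.21 for distinct sequences. It was 0.85 without its most abundant sequence and 0.72 with the GC correction, which was added after seeing the data. Under the other 8 of 15 alternatives it stayed within its interval. The miR-23 and miR-24 ratios stayed within their wide intervals in all 16 and 15 alternatives, with values of both signs. Setting aside sequences of any other gene left the miR-27 and miR-24 families with 0 reads, because their sequences also lie in the host gene 2010111I01Rik. The miR-27 share of the reads of the 6 hairpins was then 0% in both libraries. Only the miR-23 reads remained, 10 with DMSO and 3 with SB431542. With the host gene exempted, an alternative added after seeing the data, the miR-27 ratio was 0.55. The share of miR-27 reads of 17 nt was 93.8% with DMSO at a minimum of 14 nt, 97.8% and 97.2% (DMSO and SB431542) at 16 nt, and 97.7% and 97.2% without sequences of other genes but the host. These changes follow from removing or adding short reads. The share that starts at base 1 was 99.6% with DMSO at a minimum of 17 nt. Of the 44 arms, 3 were at least 2-fold higher and 2 lower. These numbers were 0 and 15 per reads of 15 to 17 nt, and 1 and 4 with edgeR or DESeq2 factors. With a minimum sum of 1 read they were 93 and 30 of 341 arms, and with 200 reads 1 of 25 was lower. No paired analysis was possible because each group has 1 library. The 22 reads of miR-23 and miR-24 over both libraries limit what can be said of them.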

Other observations

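Reads that differ from the leading miR-27 fragment by 1 base were few. With DMSO 5 such reads stood beside 1263 exact ones (0.394%, 0.128 to 0.918), 4 of them with the change in bases 2 to 8, and with SB431542 1 stood beside 516 (0.193%, 0.0049 to 1.07). No read in either library carried a change in bases 10 to 17, which allows up to 0.238% with DMSO and 0.581% with SB431542. For 13 other arms led by a 17 nt fragment of at least 100 DMSO reads the median share was 0.397%. These values were examined after the main results were known.

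The miR-27 fragment that starts at base 1 was also found at 14 nt, with 20 reads with DMSO and 4 with SB431542, and was not found at 10, 11, 12 or 13 nt in either library. At 14 nt it also occurs in Sox12 and 2010111I01Rik.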
